A study of Homo sapiens with 11 samples.

Results

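CDC25B, CARNS1, UNC5B-AS1, ADAM33, PHYHIP and ATP10B are 6 of the 60605 features listed in an RNA-seq table of ARPE-19 cells, and were chosen because they were higher in cells expressing Klf4 than in control cells. They were followed here into cells expressing OSK (Oct4, Sox2 and Klf4 together) and into cells expressing Oct4 or Sox2 alone. They were sorted by log2 distance from both Klf4 and GFP. CDC25B and CARNS1 were kept (OSK less than 1 log2 below Klf4), UNC5B-AS1 and ADAM33 were partly kept (at least 1 log2 below Klf4 and at least 1 above GFP), and PHYHIP and ATP10B were lost (at least 1 below Klf4 and less than 1 above GFP). These names do not rank the share of the Klf4 level that OSK held: ADAM33, partly kept, held 4.18% of it, while PHYHIP, lost, held 30.0%. Against GFP, ADAM33 in OSK did not pass the main test, by limma, but passed with edgeR and DESeq2 on recovered reads. Since the rise with Klf4 chose the genes, that rise and the difference between OSK and Klf4 are given as descriptions with no test.

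Klf4 is a zinc finger transcription factor that binds GC-rich and CACCC-type sequences and is known in epithelia for its part in differentiation and growth control. Oct4 is a POU factor that binds octamer sequences, and Sox2 is an HMG-box factor; with Klf4 they form the OSK set used for partial reprogramming. A gene that responds to Klf4 alone can respond otherwise when Oct4 and Sox2 are also present. The comparison of Klf4 with OSK holds any such difference together with any other difference between these groups of stable cells. These cannot be told apart.

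ARPE-19 is an established human retinal pigment epithelium (RPE) line, and every group consisted of stable ARPE-19 cells collected 4 days into expression of an open reading frame. The control group expressed GFP (3 libraries), and the Oct4, Sox2, Klf4 and OSK groups had 2 libraries each. The library names of all factor groups carry the letters mC, which the GFP names lack. What mC stands for is not given in the sources used here. Its part in differences from GFP cannot be told apart from that of the factors. Polyadenylated RNA was sequenced, and the values are gene counts scaled per library, called normalised counts here. The species of the reading frames, the way they were switched on and whether replicates were separate cultures are not given in the sources used here, so p-values measure only the spread between these libraries, which may be technical.

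The labels give no sequencing batch. The libraries held 15053300 to 19791775 reads. GFP replicate 1 stood apart, with 42956 features detected, and so did OSK replicate 1, with 32493, against 25853 to 26971 in the other libraries. In GFP replicate 1, 67.65% of 405 olfactory receptor genes had at least 1 read, and in OSK replicate 1, 22.96%, against 4.938% to 8.148% elsewhere. Of 14 RPE markers, 9 to 11 were above 10 normalised counts in every library of a group; MITF reached at least 747.5 and OTX2 at least 1175 in all libraries, whereas RPE65, TTR and DCT stayed below 10 everywhere. RPE markers summed to 32723 to 36014 in GFP, 25542 to 28204 in Klf4, 21448 to 22101 in Sox2, 18384 to 18911 in Oct4 and 15663 to 16019 in OSK. These sums weigh the most abundant genes most and do not follow the markers evenly. Across all libraries the keratin genes KRT8 and KRT18 ran from 6803 to 16617 and from 3097 to 5682. Immune markers summed to 4.4 to 100.29 normalised counts, the highest in GFP, and none of the 6 was above 10 in every library of any group. The part of these markers in the results below was not tested.

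Each factor gene was highest in lines labelled with it. KLF4 had 124, 45.5 and 46.7 normalised counts in GFP, 24205 and 22142 in Klf4, and 24470 and 24202 in OSK. The Klf4 and OSK lines therefore differed little in KLF4 level (OSK minus Klf4 0.07 log2, SE 0.31), and both lay far above GFP. POU5F1, which encodes Oct4, averaged 67074 normalised counts in the Oct4 line and 19281 in OSK. SOX2 averaged 29123 in the Sox2 line and 17673 in OSK. Both of these factors were lower in OSK than in their own single-factor lines, with no overlap between libraries. Lines without a factor's reading frame also differed from GFP at far lower levels. KLF4 had 248 and 242 normalised counts in the Oct4 line, 1.92 log2 above GFP (adjusted p = 6.12e-05, limma). SOX2 was called higher in the Oct4 line (1.63 log2, adjusted p = 2.60e-06, limma) and in the Klf4 line (1.39 log2, adjusted p = 1.82e-05, limma).

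The RefSeq promoter table (GRCh38.p14, 250 bases before to 50 bases after a start) held UNC5B-AS1, CDC25B and ATP10B. A single promoter of each is printed because the 3 genes represent a partly kept, a kept and a lost response. Capitals mark CACCC (none of the 3 promoters holds it on the other strand); no other searched motif overlaps them. UNC5B-AS1 (chr10:71218179-71218478, minus strand), CDC25B (chr20:3786701-3787000, plus strand, the first listed start) and ATP10B (chr5:160852162-160852461, minus strand, the first listed start) read 5′ to 3′ as follows.
UNC5B-AS1: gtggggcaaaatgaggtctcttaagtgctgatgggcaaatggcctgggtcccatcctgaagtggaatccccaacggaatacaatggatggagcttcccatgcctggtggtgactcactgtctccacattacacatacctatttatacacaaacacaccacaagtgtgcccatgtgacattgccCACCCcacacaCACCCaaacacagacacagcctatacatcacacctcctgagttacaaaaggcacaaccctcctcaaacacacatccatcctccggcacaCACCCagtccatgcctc
CDC25B: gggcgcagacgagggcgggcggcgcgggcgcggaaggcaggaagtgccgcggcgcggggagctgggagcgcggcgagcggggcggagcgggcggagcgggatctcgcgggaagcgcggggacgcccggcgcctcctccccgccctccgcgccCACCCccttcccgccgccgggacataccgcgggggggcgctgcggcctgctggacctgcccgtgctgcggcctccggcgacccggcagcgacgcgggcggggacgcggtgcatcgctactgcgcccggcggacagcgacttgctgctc
ATP10B: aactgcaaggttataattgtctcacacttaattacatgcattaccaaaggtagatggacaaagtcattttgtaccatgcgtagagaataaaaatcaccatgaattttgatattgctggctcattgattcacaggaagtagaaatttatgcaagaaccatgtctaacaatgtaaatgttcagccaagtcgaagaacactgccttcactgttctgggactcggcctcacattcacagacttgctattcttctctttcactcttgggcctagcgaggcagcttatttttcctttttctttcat

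In the printed promoters, CACCC letters occurred 3 times for UNC5B-AS1, once for CDC25B and not for ATP10B. The 3 further CDC25B promoters in the table held 1, 2 and 2 matches, and the further ATP10B promoter (chr5:160685342-160685641) held 1, so the counts for the printed promoters hold for those starts only. Both ATP10B promoters lie inside the RefSeq span of the gene (chr5:160563120-160929360, minus strand). The outermost start of that span had no promoter listed, so its letters were not searched. Of 35116 RefSeq promoters of the same length, 59.9% held at least 1 match on either strand and 11.2% held 3 or more. The letters ACAAT, the core read by SOX factors, searched on both strands, occurred 2 times in the printed ATP10B promoter and 0 times in the further one, 1 time in that of UNC5B-AS1 and in 0 of the 4 of CDC25B; 27.4% of all promoters held them. The octamer-like letters ATGCAAA, searched on both strands, were in none of the 3 printed, in 1 further CDC25B promoter (chr20:3799798-3800097) and in 4.46% of all promoters. Base composition differed widely, with 81.3% G and C in the printed CDC25B promoter, 51.3% in that of UNC5B-AS1 and 38.7% in that of ATP10B (47.7% in the further one), against a median of 58.7%. These matches describe letters only and show no binding.

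**Figure D1:**
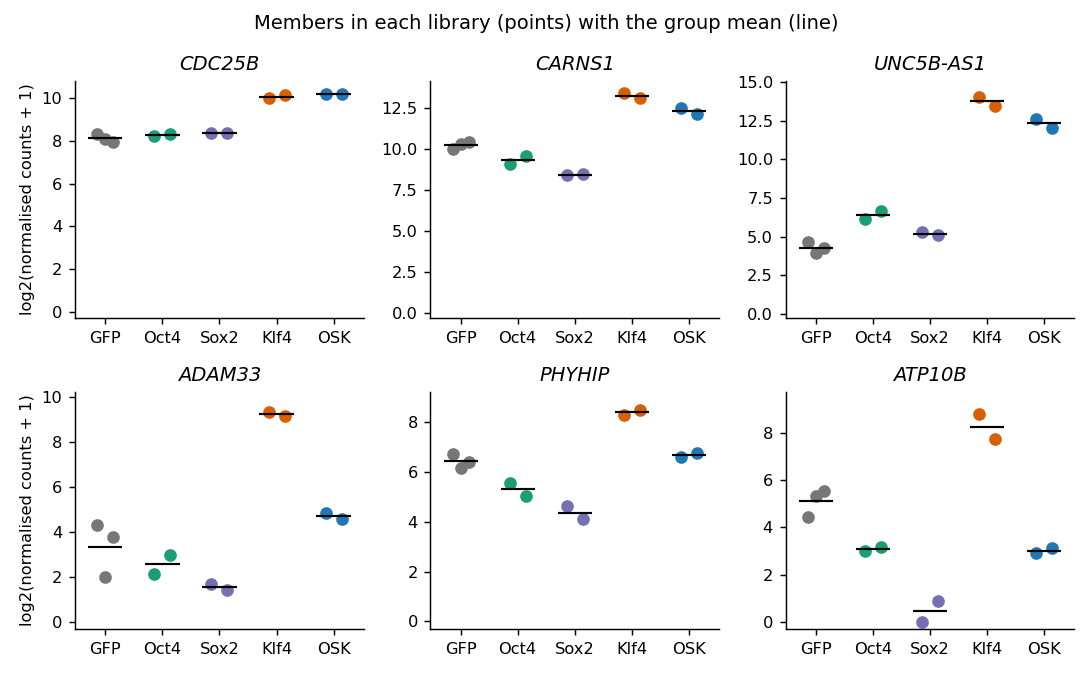
Level of each gene in every library, on the log2(normalised counts + 1) scale; points are libraries and the short line is the group mean. Klf4 and OSK libraries sit together only for CDC25B, and for ATP10B the OSK libraries lie below all 3 GFP libraries.

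CDC25B encodes a phosphatase that removes inhibitory phosphates from cyclin-dependent kinases and so promotes entry into mitosis. Its gene lies on chr20:3786951-3806115. CDC25B had 326, 273 and 251 normalised counts in GFP, 302 and 317 in Oct4, 328 and 332 in Sox2, 1035 and 1129 in Klf4, and 1169 and 1177 in OSK. The Klf4 and OSK libraries did not overlap any of the others, and both OSK libraries lay above both Klf4 libraries.

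CDC25B was 1.94 log2 higher in Klf4 than in GFP (SE 0.10) and 0.12 log2 higher in OSK than in Klf4 (SE 0.11), so that its mean in OSK was 108% of that in Klf4. Against GFP it was 2.05 log2 higher in OSK (SE 0.10, adjusted p = 3.86e-10 by limma with Benjamini-Hochberg adjustment). Against the single-factor lines that did not choose the gene, OSK was 1.92 log2 above Oct4 (adjusted p = 1.97e-09, limma) and 1.83 log2 above Sox2 (adjusted p = 3.15e-09, limma). Oct4 alone gave 0.14 log2 (SE 0.10, adjusted p = 0.333, limma) and Sox2 alone 0.23 log2 (SE 0.10, adjusted p = 0.0899, limma). Without GFP replicate 1, the highest of the controls, these became 0.24 (adjusted p = 0.0455) and 0.33 (adjusted p = 0.00657), past the threshold of 0.05.

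CARNS1 encodes carnosine synthase, which joins beta-alanine to histidine to make carnosine, a dipeptide that buffers pH and scavenges reactive aldehydes. It lies on chr11:67415678-67425604. CARNS1 had 1012, 1238 and 1351 normalised counts in GFP, 532 and 758 in Oct4, 334 and 348 in Sox2, 10566 and 8702 in Klf4, and 5777 and 4422 in OSK. No 2 of these groups overlapped, and their order was Sox2, Oct4, GFP, OSK and Klf4 from low to high.

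CARNS1 was 3.01 log2 higher in Klf4 than in GFP (SE 0.15) and 0.92 log2 lower in OSK than in Klf4, an OSK minus Klf4 difference of -0.92 (SE 0.16). OSK held 52.9% of the Klf4 level and 46.2% of the rise over GFP in normalised counts. That difference lies just inside the 1 log2 boundary that separates kept from partly kept: without Klf4 replicate 2, or without OSK replicate 1, CARNS1 was partly kept. OSK was 2.08 log2 above GFP (SE 0.15, adjusted p = 1.70e-08, limma), 2.99 above Oct4 (adjusted p = 8.16e-10, limma) and 3.89 above Sox2 (adjusted p = 4.71e-11, limma). Oct4 and Sox2 alone went the other way, at -0.91 (SE 0.15, adjusted p = 1.49e-04, limma) and -1.80 log2 (SE 0.15, adjusted p = 7.33e-08, limma) from GFP.

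UNC5B-AS1 is a long noncoding RNA on the minus strand of chr10:71217224-71218228, inside the span of UNC5B, which encodes a netrin receptor and runs on the plus strand. It had 23.8, 14.2 and 18.5 normalised counts in GFP, 69.7 and 98.4 in Oct4, 38.2 and 32.5 in Sox2, 17337 and 11242 in Klf4, and 6338 and 4230 in OSK. The 5 groups did not overlap, and Klf4 and OSK lay far above the rest. The rise of 9.49 log2 with Klf4 (SE 0.23) ranked 1 among the 18828 features tested.

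In OSK, UNC5B-AS1 held 37.0% of its Klf4 level, with an OSK minus Klf4 difference of -1.43 log2 (SE 0.25). The 2 Klf4 libraries themselves differed 1.54-fold. OSK nonetheless stood 8.06 log2 above GFP (SE 0.23, adjusted p = 6.04e-13, limma), 5.95 above Oct4 (adjusted p = 4.31e-11, limma) and 7.16 above Sox2 (adjusted p = 6.08e-12, limma). Oct4 alone raised it by 2.11 log2 (SE 0.23, adjusted p = 1.97e-06, limma). The 0.90 log2 rise with Sox2 alone (SE 0.23, adjusted p = 0.00443, limma) rested on 72 reads in the Sox2 libraries. Its call was lost with edgeR (adjusted p = 0.151) and DESeq2 (adjusted p = 0.0638) on recovered reads. The call was also lost in a limma fit of the compared groups only (adjusted p = 0.0825). Without Sox2 replicate 1 the rise was 0.79 log2.

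Whether counting used the strand is not given in the sources used here, so reads of UNC5B-AS1 and of UNC5B transcripts that cross it cannot be told apart. In GENCODE 29, none of the 707 exon bases of UNC5B-AS1 is shared with a UNC5B exon. Per kilobase of exon, UNC5B-AS1 stood at 0.0654 of the UNC5B level in GFP, 0.581 in Oct4, 0.728 in Sox2, 6.82 in Klf4 and 4.47 in OSK. It was thus below UNC5B per length in GFP, Oct4 and Sox2 and above it in Klf4 and OSK. UNC5B itself had 2178, 2983 and 3189 normalised counts in GFP, 21038 and 19519 in Klf4, and 12413 and 10449 in OSK. UNC5B rose by 2.88 log2 with Klf4 (adjusted p = 1.34e-08, limma) and by 2.05 with OSK (adjusted p = 3.99e-07, limma), and OSK was below Klf4 by -0.83 log2 (adjusted p = 0.00940, limma; 0.0759 without Klf4 replicate 1 and 0.106 without OSK replicate 2). With Oct4 and Sox2 alone UNC5B fell by 0.99 and 2.60 log2. UNC5B-AS1 rose in both by limma, though its Sox2 call was lost with edgeR and DESeq2.

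ADAM33 encodes a membrane-anchored metalloprotease of the ADAM family and lies on chr20:3667975-3682010. It had 18.9, 3.03 and 12.6 normalised counts in GFP, 3.48 and 6.87 in Oct4, 2.24 and 1.71 in Sox2, 655 and 571 in Klf4, and 28.2 and 23.1 in OSK. The OSK libraries lay above every GFP, Oct4 and Sox2 library, yet far below both Klf4 libraries. The Oct4 values fell within the GFP range and the Sox2 values below it.

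ADAM33 was 5.89 log2 higher in Klf4 than in GFP (SE 0.56), and its OSK minus Klf4 difference was -4.53 log2 (SE 0.61). OSK was 1.36 log2 above GFP (SE 0.56), more than the 1 log2 that defines partly kept, but this was 2.35% of the rise in normalised counts, and against GFP it did not pass the test (adjusted p = 0.0637, limma). That call turned on GFP libraries and method. The gene passed with edgeR (adjusted p = 0.0383) and DESeq2 (adjusted p = 0.0161) on recovered reads. By limma with a pseudocount of 5 it also passed (adjusted p = 0.0473). Without GFP replicate 1, whose value was the highest control, OSK was 1.84 log2 above GFP (adjusted p = 0.00761), while without GFP replicate 2 it was 0.69 log2 above and the gene was counted as lost. OSK exceeded Oct4 by 2.16 log2 (adjusted p = 0.00961, limma; 0.0861 without Oct4 replicate 1 and 0.0624 without OSK replicate 1) and Sox2 by 3.16 log2 (adjusted p = 5.68e-04, limma).

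Low counts limit ADAM33 in the single-factor lines. Oct4 gave -0.79 log2 from GFP (SE 0.56, adjusted p = 0.292, limma), or -1.47 without GFP replicate 2 (adjusted p = 0.0150). Sox2 gave -1.80 log2 (SE 0.56, adjusted p = 0.0162, limma), a call lost in 6 alternatives. Its adjusted p was 0.123 in a fit of the compared groups only, 0.0543 with the replicate block, 0.0551 without GFP replicate 3, 0.0517 and 0.0863 without Sox2 replicate 1 and 2, and 0.0588 without GFP replicate 1 and OSK replicate 1. The Sox2 libraries held 4 ADAM33 reads in total against 35 in GFP, a ratio of 5.96-fold lower with a 95% exact interval of 2.13 to 23.1 that covers counting error only.

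PHYHIP encodes a protein that interacts with phytanoyl-CoA hydroxylase, the peroxisomal enzyme defective in Refsum disease, and lies on chr8:22219703-22232099. It had 103, 69.8 and 84.6 normalised counts in GFP, 46.5 and 32.1 in Oct4, 23.6 and 16.3 in Sox2, 316 and 362 in Klf4, and 96.5 and 107 in OSK. The OSK and GFP ranges overlapped, both Klf4 libraries were above all others, and the Oct4 and Sox2 libraries were below all GFP libraries.

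PHYHIP was 1.98 log2 higher in Klf4 than in GFP (SE 0.23), and its OSK minus Klf4 difference was -1.73 log2 (SE 0.26). OSK was 0.26 log2 above GFP (SE 0.23, adjusted p = 0.432, limma), or 6.20% of the Klf4 rise in normalised counts. Oct4 and Sox2 alone lay below GFP by -1.12 (SE 0.23, adjusted p = 0.00137, limma) and -2.06 log2 (SE 0.23, adjusted p = 2.87e-06, limma). OSK was above Oct4 by 1.37 log2 (adjusted p = 4.44e-04, limma) and above Sox2 by 2.31 log2 (adjusted p = 2.41e-06, limma), so its level near GFP was not the level of either of those lines.

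ATP10B encodes a P4-type ATPase that moves glucosylceramide and phosphatidylcholine across membranes of late endosomes and lysosomes, and lies on chr5:160563120-160929360. It had 20.9, 39.5 and 44.7 normalised counts in GFP, 6.97 and 8.01 in Oct4, 0 and 0.86 in Sox2, 442 and 210 in Klf4, and 6.5 and 7.7 in OSK. OSK and Oct4 overlapped and lay below GFP, Sox2 was lowest, and Klf4 was far above the rest although its 2 libraries differed 2.10-fold.

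ATP10B was 3.16 log2 higher in Klf4 than in GFP (SE 0.48), and its OSK minus Klf4 difference was -5.24 log2 (SE 0.53), the greatest of the 6 genes. OSK held 2.18% of the Klf4 level and was below GFP by -2.09 log2 (SE 0.48, adjusted p = 0.00238, limma). OSK minus Oct4 was -0.07 log2 (SE 0.53, adjusted p = 0.933, limma), with too few reads (13 in each group) to bound that difference closely, while OSK exceeded Sox2 by 2.57 log2 (adjusted p = 9.52e-04, limma). Oct4 was -2.02 log2 from GFP (SE 0.48, adjusted p = 0.00345, limma) and Sox2 -4.65 log2 (SE 0.48, adjusted p = 9.53e-07, limma). The Sox2 libraries held 1 ATP10B read against 106 in GFP, a ratio of 72.2-fold lower with a 95% exact interval of 12.7 to 2877 that likewise covers counting error only, since reads copied by PCR are not independent molecules. In bulk RNA, fewer cells with a transcript and less of it per cell cannot be told apart for any of these genes.

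**Figure D2:**
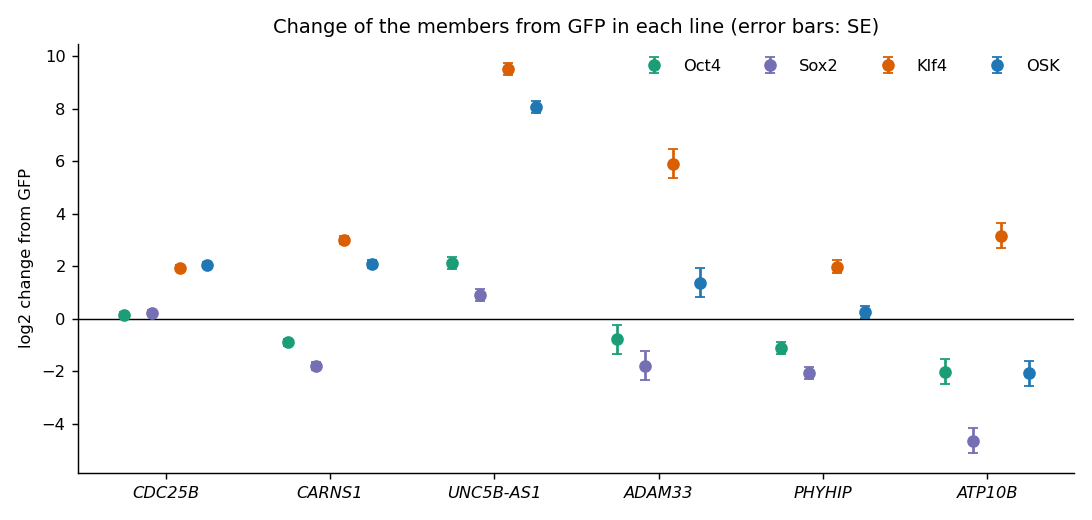
Log2 change of each gene from GFP in the Oct4, Sox2, Klf4 and OSK lines, with limma standard errors as bars; all 4 changes of a gene share the GFP libraries. OSK follows Klf4 for CDC25B, lies between GFP and Klf4 for CARNS1 and UNC5B-AS1, and lies below GFP for ATP10B.

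Across the 6 genes, 4 passed the test between OSK and GFP, 3 higher and 1 lower, where 39.7% of all features tested did (19.7% higher and 20% lower). Between Oct4 and GFP, 1 was higher and 3 lower, where 37.3% of all features were called (20.1% higher and 17.2% lower). Between Sox2 and GFP, 1 was higher and 4 lower, where 41.6% were called (21.7% higher and 19.9% lower). These 3 comparisons share the GFP libraries on which the genes were chosen. The changes of OSK from Oct4 and from Sox2 use neither GFP nor Klf4 libraries, but their tests share the spread estimated over all 11 libraries. In OSK, 5 of the 6 were higher than in Oct4 and 0 lower (0 also at an unadjusted p under 0.05, with edgeR and with DESeq2). Over all features, 40.3% were called in that comparison (18.4% higher and 21.9% lower). All 6 were higher in OSK than in Sox2, where 40.5% were called (20% higher and 20.5% lower). Without GFP replicate 1 and OSK replicate 1 together, a check chosen after the data were seen, these 5 counts were 4, 4, 5, 5 and 6. For Sox2 against GFP the genes were not the same: ADAM33 lost its call (adjusted p = 0.0588) and CDC25B gained one (adjusted p = 0.0113), giving 2 higher and 3 lower. Between Klf4 and GFP 33.5% of features were called (17.6% higher and 16% lower), and between OSK and Klf4 21.5% (9.56% higher and 11.9% lower). Nothing is read from these for the genes chosen on Klf4.

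The median log2 change of the 6 genes was 1.71 in OSK, -0.85 in Oct4 and -1.80 in Sox2, beside -0.01, -0.02 and -0.02 over all features tested. CARNS1, PHYHIP and ATP10B were lower than GFP in both the Oct4 and the Sox2 line. CDC25B passed in neither with all libraries but in both without GFP replicate 1. UNC5B-AS1 was higher in both by limma, though its Sox2 call was lost with edgeR and DESeq2 on recovered reads. The sum of the 3 single-factor changes from GFP was 2.30 log2 for CDC25B beside 2.05 in OSK, 0.30 beside 2.08 for CARNS1 and -1.19 beside 0.26 for PHYHIP. It was 12.50 beside 8.06 for UNC5B-AS1, 3.30 beside 1.36 for ADAM33 and -3.51 beside -2.09 for ATP10B; these sums share the GFP libraries with OSK and were not tested.

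**Figure D3:**
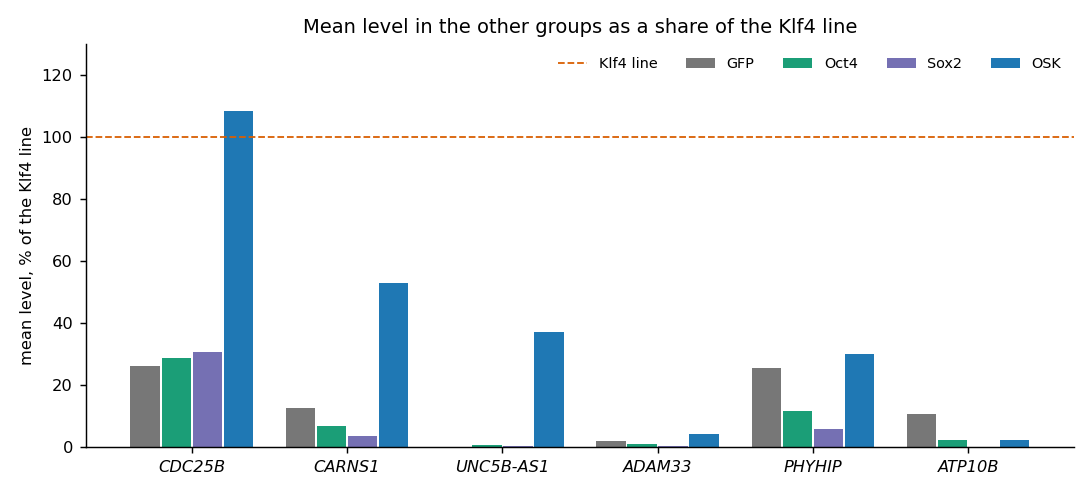
Mean normalised counts in GFP, Oct4, Sox2 and OSK as a percentage of the mean in the Klf4 line (dashed line); bars are means of 3 GFP or 2 other libraries, without error bars because the library values are given in the text. OSK held 108% for CDC25B, 52.9% for CARNS1, 37.0% for UNC5B-AS1, 30.0% for PHYHIP, 4.18% for ADAM33 and 2.18% for ATP10B.

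CDC25B, kept in OSK, and ADAM33, at 4.18% of its Klf4 level there, both lie on chromosome 20 with 104940 bases between them. In that gap, 4 RefSeq genes could be matched by symbol to the deposited values, and a gene under another symbol is not covered. SIGLEC1, which encodes a sialic acid-binding receptor known from macrophages, lies 4959 bases from ADAM33. It had 41.7, 11.1 and 11.7 normalised counts in GFP, 357 and 217 in Klf4, and 27.1 and 5.5 in OSK. SIGLEC1 rose by 3.90 log2 with Klf4 (SE 0.67, adjusted p = 3.00e-04, limma; 4.50 without GFP replicate 1) and was below Klf4 in OSK by -4.37 (adjusted p = 4.02e-04, limma; -5.43 without OSK replicate 1 and -3.32 without OSK replicate 2). Its OSK value was -0.47 log2 from GFP (adjusted p = 0.634, limma), a sign that turned without GFP replicate 1 (0.13) and without OSK replicate 2 (0.59). The 6 immune markers summed to 4.57 to 6.94 normalised counts in the Klf4 libraries and 4.4 to 17.35 in the OSK libraries, and PTPRC, found on all leukocytes, reached 2.24 at most in any library.

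CENPB, a centromere protein gene that ends 210 bases before CDC25B, was 0.07 log2 from GFP in Klf4 (SE 0.08, adjusted p = 0.547, limma) and 0.01 in OSK (SE 0.08, adjusted p = 0.919, limma). HSPA12B was -0.43 log2 from GFP in Klf4 and -0.96 in OSK, with neither past the test, and SPEF1 -1.02 in Klf4 (adjusted p = 0.219, limma). SPEF1 was -1.84 in OSK (adjusted p = 0.0236, limma; 0.0677 without GFP replicate 1, 0.0645 without OSK replicate 1 and 0.125 without OSK replicate 2). Raised levels with Klf4 between these positions were thus called in SIGLEC1 and not in CENPB, HSPA12B or SPEF1. HSPA12B and SPEF1 had 12 and 13 reads in total in the Klf4 libraries (SE of the Klf4 change 0.89 and 0.60), too few to bound a rise closely.

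**Figure D4:**
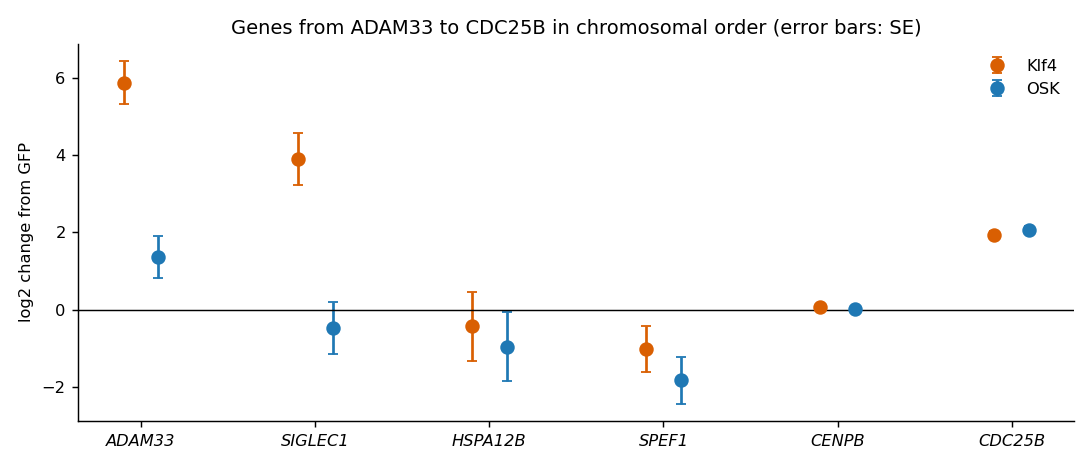
Log2 change from GFP in Klf4 and OSK for ADAM33, CDC25B and the 4 genes matched by symbol between them, in chromosomal order and evenly spaced. Bars are limma standard errors. With Klf4 and OSK respectively, ADAM33 is at 5.89 and 1.36, SIGLEC1 at 3.90 and -0.47, and CDC25B at 1.94 and 2.05.

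The nearest genes matched by symbol on each side of the 6 numbered 25, of which 18 were tested. With Klf4, 9 were higher and 1 lower than GFP, with OSK 6 were higher and 4 lower, and between OSK and Klf4 0 were higher and 9 lower. Over all features tested, 17.6% were higher and 16% lower with Klf4, 19.7% and 20% with OSK, and 9.56% and 11.9% between OSK and Klf4. The count of 0 higher in OSK than in Klf4 by limma was also 0 at an unadjusted p under 0.05, with edgeR and with DESeq2. Without Klf4 replicate 1 the called counts fell to 6 of 18 for Klf4 against GFP and 5 of 18 for OSK against Klf4. BMP1, a procollagen proteinase gene 7376 bases from PHYHIP, rose by 2.29 log2 with Klf4 (adjusted p = 1.83e-10, limma) and by 1.63 with OSK (adjusted p = 4.92e-09, limma), where PHYHIP was near GFP in OSK. LINC02159, a long noncoding RNA 2417 bases from ATP10B, was -0.48 log2 from GFP with Klf4 (adjusted p = 0.141, limma) and -2.36 with OSK (adjusted p = 8.58e-07, limma). LINC02159 had 270, 292 and 370 normalised counts in GFP, 59.2 and 67.5 in Oct4, 13.5 and 7.71 in Sox2, 263 and 186 in Klf4, and 54.2 and 64.9 in OSK. Of GFP, Oct4, Sox2 and OSK, GFP was highest and Sox2 lowest in LINC02159 and in ATP10B, while the Klf4 libraries of LINC02159 did not rise above GFP. PTTG1, the securin gene on the other side of ATP10B, rose by 1.83 log2 with Klf4 (adjusted p = 6.99e-07, limma) and 1.96 with OSK (adjusted p = 2.20e-07, limma).

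Relatives of CDC25B at mitotic entry were 15 genes, all tested. With Klf4, 14 were higher than GFP and 0 lower (median 1.67 log2), and with OSK 13 were higher and 0 lower (median 1.92), where 17.6% and 19.7% of all features were called higher and the medians over all features were near 0. The counts of 0 by limma were also 0 at an unadjusted p under 0.05, with edgeR and with DESeq2. The OSK count of 13 was 10 without OSK replicate 1, and the Klf4 count of 14 was 11 with DESeq2 on recovered reads. CDK1, the kinase that CDC25 phosphatases activate, had 48.7, 59.7 and 60.3 normalised counts in GFP, 431 and 480 in Klf4, and 374 and 371 in OSK. It rose by 3.00 log2 with Klf4 (adjusted p = 6.04e-09, limma) and 2.71 with OSK (adjusted p = 1.15e-08, limma). AURKA, a mitotic kinase, rose by 2.84 and 2.66 log2, and PKMYT1, which inhibits CDK1, by 2.60 and 2.21.

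CHEK1, the checkpoint kinase that restrains CDC25 proteins, was the 1 gene of the list called higher in OSK than in Klf4. It had 104, 120 and 102 normalised counts in GFP, 332 and 363 in Klf4, and 976 and 995 in OSK. Its change from GFP was 1.67 log2 in Klf4 and 3.17 in OSK, and OSK was above Klf4 (adjusted p = 3.17e-07, limma). CDK2, named after its values were seen because it was the 1 gene called lower, was at -0.35 log2 (adjusted p = 0.0273, limma). That call was lost without Klf4 replicate 1 (adjusted p = 0.0687), Klf4 replicate 2 (0.142) or OSK replicate 2 (0.288), and with DESeq2 (0.0848). With Sox2 alone 12 of the 15 were higher than GFP and 0 lower, where 21.7% of all features were higher and 19.9% lower. With Oct4 alone 6 were higher and 2 lower, where 20.1% and 17.2% of all features were. CDC25B passed in neither line with all libraries. Without GFP replicate 1 it was higher in both (adjusted p = 0.0455 with Oct4 and 0.00657 with Sox2, limma).

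**Figure D5:**
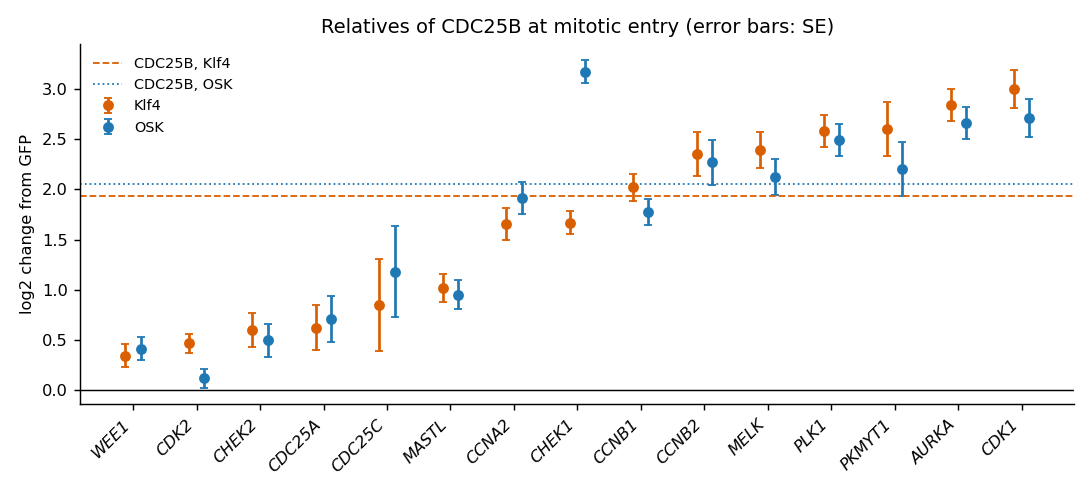
Log2 change from GFP in Klf4 and OSK for the 15 relatives of CDC25B, ordered by the Klf4 change, with limma standard errors as bars and the 2 CDC25B changes as horizontal lines. Most genes have similar changes in both lines, and CHEK1 is higher in OSK (3.17) than in Klf4 (1.67).

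Other relatives moved in both directions. Of 13 tested genes of carnosine and beta-alanine metabolism, 2 were higher and 5 lower in Klf4 and 2 higher and 5 lower in OSK (medians -0.15 and -0.33 log2). Over all features 17.6% were higher and 16% lower with Klf4, and 19.7% and 20% with OSK, which is the background for this and the lists that follow. The 5 lower in Klf4 became 3 without GFP replicate 3 or without either library of Oct4 or Klf4, and 2 with no filter on low values; the 5 lower in OSK became 3 without OSK replicate 2, and the 2 higher became 4 without GFP replicate 1. DPYD, the initial enzyme of pyrimidine breakdown, the pathway that yields beta-alanine, rose by 1.38 log2 with Klf4 (adjusted p = 4.35e-07, limma) and 0.71 with OSK (adjusted p = 2.67e-04, limma). CSAD, a decarboxylase of taurine synthesis, rose by 1.19 and 0.87 log2. SLC15A3 and UPB1 were -3.13 and -2.62 log2 from GFP in Klf4, on 6 reads each in the Klf4 libraries. The SLC15A3 call was lost without Klf4 replicate 2 (adjusted p = 0.151) and the UPB1 call without Klf4 replicate 1 (adjusted p = 0.305).

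Of 17 tested P4-ATPases and glucosylceramide genes, 4 were higher and 5 lower with Klf4 and 4 higher and 3 lower with OSK (medians 0.01 and 0.10 log2). Without Klf4 replicate 1 the 4 higher with Klf4 became 2, without Klf4 replicate 2 the 5 lower became 3, and without GFP replicate 1 the 3 lower with OSK became 6. ATP10A, a paralog of ATP10B, rose by 1.90 log2 with Klf4 (adjusted p = 0.00490, limma) and 2.29 with OSK (adjusted p = 9.38e-04, limma). Without GFP replicate 1 these rises were 2.54 and 2.93, whereas ATP10B fell below GFP in OSK. ATP10D, another paralog, was named after its values were seen. It had 841, 859 and 958 normalised counts in GFP, 562 and 603 in Klf4, and 773 and 795 in OSK. UGCG, which makes glucosylceramide, was lower in both lines, by -0.99 and -1.24 log2. ATP8A1 rose by 0.73 with Klf4 (adjusted p = 7.55e-04, limma) and was -0.58 from GFP in OSK (adjusted p = 0.00330, limma; 0.0823 without GFP replicate 1 and OSK replicate 1), a drop of the same sign as that of ATP10B between these lines.

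Of 11 tested ADAM family genes other than ADAM33, 3 were higher and 3 lower with Klf4 and 4 higher and 1 lower with OSK. The 4 higher were fewer without OSK replicate 1. The 1 lower became 0 with edgeR, with DESeq2 and without any single GFP library, among other alternatives. ADAM15 had 2219, 2836 and 2815 normalised counts in GFP, 19093 and 17554 in Klf4, and 11251 and 9737 in OSK. It rose by 2.81 log2 with Klf4 (adjusted p = 1.10e-11, limma) and 2.00 with OSK (adjusted p = 2.54e-10, limma). ADAM12 was -0.78 log2 from GFP in Klf4 (adjusted p = 5.10e-04, limma) and 0.03 in OSK (adjusted p = 0.908, limma). ADAM23 was 1.67 log2 above GFP in OSK (adjusted p = 1.50e-05, limma).

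Of 11 tested netrin receptors and netrins, 3 were higher and 1 lower with Klf4 and 3 higher and 4 lower with OSK. The 1 lower became 0 without GFP replicate 1, GFP replicate 3 or either Klf4 library, and the 4 lower with OSK became 2 without OSK replicate 1. NTNG1, a membrane-anchored netrin, rose by 4.84 log2 with Klf4 (adjusted p = 1.06e-08, limma) and 4.40 with OSK (adjusted p = 1.91e-08, limma). The list of phytanic acid oxidation genes and PHYHIP relatives held 8 tested genes. Of these, 0 were higher with Klf4 by limma (0 also at an unadjusted p under 0.05, with edgeR and with DESeq2). With Klf4 2 were lower (fewer without Klf4 replicate 1), and with OSK 1 was higher and 3 lower. PHYH, the hydroxylase to which PHYHIP binds, was -0.57 log2 from GFP in Klf4 (adjusted p = 2.95e-04, limma) and -0.59 in OSK (adjusted p = 1.66e-04, limma), while SLC27A2, a very long-chain fatty acid activating enzyme, rose by 1.48 with OSK (adjusted p = 2.56e-04, limma).

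The tested gene nearest to each of the 6 was found from the root mean square difference of its 4 log2 changes from GFP, a description over 4 lines that share the GFP libraries. The 4 changes include the rise with Klf4 that chose the genes, so likeness is no evidence of shared regulation. UNC5B-AS1 was nearest to KLF4 itself (0.61 log2), CDC25B to SELENBP1 (0.16), and CARNS1 to AQP3 (0.18) and UNC5B (0.41). KLF4 is the factor expressed in the Klf4 and OSK lines, so its rise there follows from the design. PHYHIP was nearest to PSORS1C2 and RILP (0.27 each), ATP10B to SIGLEC1 (1.00) and TRIM29 (1.06), and ADAM33 to the RNA TARID (0.38) and to the keratin gene KRT14 (0.52). The second nearest genes were NFATC2 for UNC5B-AS1 (1.74) and KIAA1671 for CDC25B (0.22). AQP3 and PSORS1C2 averaged 6.59 and 5.92 normalised counts in GFP, so their likeness rests on few reads. KRT14 had 12.9, 0 and 0 normalised counts in GFP, so its changes (5.74 log2 in Klf4 and 0.62 in OSK) also rest on 1 GFP library; without it the fitted changes, which then depend on the pseudocount, were 7.01 and 1.88.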

How the data were processed

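The 11 ARPE-19 libraries were grouped by their titles. Poly(A)-selected RNA was turned into libraries with an NEBNext Ultra II kit, per the labels' protocols. Per the submitters' processing notes, STAR 2.7.1a and featureCounts 1.6.2 were used, with the builds GRCh38/hg38 and GRCm38/mm10 named without a role; the use of strand, the annotation and the scaling are not given in the sources used here. The values deposited by the authors are a signal, called normalised counts here: each equals a gene count divided by the factor of its library. Within a tolerance of 0.0061, 100% of values up to 200 were whole multiples of that factor in each library, which gave recovered reads.

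Count tests were therefore kept as alternatives, and limma 3.58.1 (R 4.3.3; eBayes with trend) on log2(value + 1) was used; this scale understates changes of low genes. All 11 libraries entered with a mean per group, over 18828 features that reached 10 in 2 or more libraries, all 6 genes among them. P-values were Benjamini-Hochberg adjusted over all features, with a threshold of 0.05; 6 residual degrees of freedom remained. The scripts were tested on simulated data. Alternatives were edgeR 4.0.16 and DESeq2 1.42.0 on recovered reads, the pseudocount, the filter, TMM scaling, a fit of only the groups compared, a replicate block, each library left out in turn and the sorting boundary. Kept means less than 1 log2 below Klf4; partly kept, at least 1 log2 below Klf4 and at least 1 above GFP; lost, at least 1 below Klf4 and less than 1 above GFP.

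The genes, lists and sorting rule were chosen with earlier results of these data known. Named relatives are at most 4 per list, those with the largest called change in Klf4 or OSK (CDK2 and ATP10D were added after their values were seen). Neighbours are the nearest protein-coding or long noncoding RefSeq genes (GRCh38.p14) whose symbol is among the deposited values. A gene deposited under another symbol is left out. The 2 genes most like each one had the smallest root mean square difference. Motifs were searched on both strands of RefSeq promoters; exon lengths came from GENCODE 29.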

Additional observations from a re-analysis of the deposited data

How the results depend on the processing

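Of 630 alternative values of the 30 tested results on the 6 genes, 607 kept their direction and side of the threshold, 12 lost the call, 8 gained it and 3 changed sign. The sign changes were all in ATP10B between OSK and Oct4, from -0.07 log2 to between -0.18 and 0.038 with a library left out (0.019 without Oct4 replicate 2, 0.038 without OSK replicate 1) and to 0.038 without GFP replicate 1 and OSK replicate 1 (adjusted p = 0.969); the cause was not tested. Of the 6 genes, those called between Sox2 and GFP were 3 instead of 5 when only those groups entered, with fewer samples behind the error, and 3 to 6 with a library left out. Genes kept in OSK numbered 1 to 2 with a library left out, 1 without GFP replicate 1 and OSK replicate 1, and 1 at a boundary of 1.5-fold; partly kept genes numbered 1 to 3 with a library left out and 0 at a boundary of 3-fold. Neighbours called were 6 to 10 for Klf4 against GFP and 5 to 9 for OSK against Klf4 with a library left out. Features called between OSK and Klf4 ran from 2539 (without OSK replicate 2; 2580 without Klf4 replicate 1) to 4918. The labels do not say that equal replicate numbers pair samples: of 20 same-numbered pairs, correlations of deviations ran from -0.0693 to 0.435 and 2 exceeded 0.1. Between groups of 2 libraries, replicates 1 and 2 give the same correlation, so the 20 values are not separate. Both values above 0.1 (0.435 and 0.310) were between GFP and OSK, the groups of the 2 libraries that stood apart. With the replicate block, in which GFP replicate 3 drops out of the comparison, those called of the 6 were 4, 4, 4, 5 and 6 for OSK, Oct4 and Sox2 against GFP and OSK against Oct4 and Sox2, and ADAM33 between Sox2 and GFP did not pass (adjusted p = 0.0543). Low reads limit ATP10B and ADAM33 in Oct4 and Sox2.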

Other observations

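Neighbours of the 6 genes that the text above does not describe also differed between the lines. PPP1CA, a phosphatase catalytic subunit gene near CARNS1, rose by 0.80 log2 with Klf4 (adjusted p = 1.52e-07, limma) and 0.48 with OSK (adjusted p = 2.35e-05, limma). RPS6KB2, on the other side of CARNS1, rose by 0.55 log2 with Klf4 (adjusted p = 2.80e-04, limma) and 0.41 with OSK (adjusted p = 0.00263, limma). SLC29A3, a nucleoside transporter gene near UNC5B-AS1, was 0.11 log2 from GFP with Klf4 (adjusted p = 0.735, limma) and -0.91 with OSK (adjusted p = 0.00297, limma). POLR3D, near PHYHIP, rose by 0.41 log2 with Klf4 (adjusted p = 0.00297, limma; 0.0627 without Klf4 replicate 1) and was -0.14 from GFP with OSK (adjusted p = 0.254, limma).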
